A study of Mus musculus with 3 samples.

Results

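Small nucleolar RNAs (snoRNAs) and small Cajal body RNAs (scaRNAs) were read on 3 arrays of mouse long-term haematopoietic stem cells. Members were chosen by symbol, as genes whose platform symbol begins with Scarna, Snora or Snord followed by a number. The family itself was picked on its differences between these same arrays, so the values below are a description. This gave 107 of 23185 named genes, of which 8 were scaRNAs, 34 were H/ACA snoRNAs and 65 were C/D snoRNAs. All 107 matched a RefSeq gene by Entrez gene identifier, and their annotated lengths ran from 42 to 275 bases (median 84). The median length was 118 bases for scaRNAs, 121 for H/ACA RNAs and 68 for C/D RNAs.

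The cells were sorted from bone marrow as lineage-negative cells positive for ckit, Sca and CD150 and negative for Flk2 and CD48, and were kept overnight in Stemspan SFEM medium. They were then unirradiated (0 Gy), given 0.02 Gy (low dose) or given 2.5 Gy (high dose) of γ-irradiation, and RNA was taken 2 hours later. There was 1 array per dose, so no difference has a replicate check, no test was possible, and precision is limited by there being only 3 arrays. The labels do not give the strain, age or number of mice, or whether animals were pooled. The question of the series is the early response of stem cells to low radiation doses, and the unirradiated cells are the control.

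Values are the authors' deposited log2 values, and a difference is one array's log2 value minus another's, so that 1 is a 2-fold difference. Of 7 measured genes of long-term stem cells, 7 lay at or above 4.55, the median level of named genes, on all 3 arrays. Cd48, a marker selected against in the sort, lay below it on all 3, and Flt3, which encodes Flk2, did not. Among 5 measured myeloid markers, the summed log2 level was 27.4 on the unirradiated array, 31.3 at 0.02 Gy and 31.0 at 2.5 Gy, with S100a8 and S100a9 at least 2-fold higher at both doses. The 3 measured lymphoid markers lay below 4.55 on all 3 arrays, with sums of 12.35 at 0 Gy, 11.4 at 0.02 Gy and 12.1 at 2.5 Gy. Of 3 measured erythroid markers 2 lay above it on all arrays and Hbb-bs below it, with sums of 13.3, 12.7 and 12.7 over the same doses. All 3 megakaryocyte markers lay above it, with sums of 20.5, 21.2 and 20.8, and Pf4 exceeded 9 on each array. The part of other cells in the differences below was not tested. Within bulk RNA, fewer cells of a type and less RNA per cell cannot be told apart.

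Guide RNAs of this kind do not encode protein. C/D snoRNAs carry ribose methylation to chosen bases of ribosomal RNA (rRNA), and H/ACA snoRNAs direct the change of uridine to pseudouridine. The scaRNAs do the same work on the small nuclear RNAs of the spliceosome, inside the Cajal body, and some of them combine both kinds of box. Most are cut from introns of host genes, many of which encode ribosomal proteins or translation factors, and a few are transcribed from promoters of their own. Processing stops at the ends protected by bound proteins, so the level of a guide RNA and that of its host mRNA need not be alike. The labelled targets here were made with a whole-transcript sense kit from total RNA, and a short RNA offers few places for array probes.

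Sequence for 4 members that differed between arrays could be read where RefSeq (GRCm38.p6) places a microRNA hairpin inside or across them. The stretches below are the overlap of hairpin and member, read on the hairpin's strand. Scarna3a and Scarna3b are shown because these near copies differed in opposite directions. Scarna13 is shown because it stood apart on the unirradiated array. Snord33 is shown as the C/D member with overlapping sequence. Capitals mark the last ACA of the stretch in the scaRNAs, the box that gives H/ACA RNAs their name, and the first UGAUGA in Snord33, the core of the C box of C/D RNAs.
Scarna3a, bases 52 to 117 of 118, chr1:159340358-159340423, plus strand, with Mir1843b: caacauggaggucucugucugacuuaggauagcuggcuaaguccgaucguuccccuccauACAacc
Scarna3b, bases 61 to 124 of 124, chr12:80391614-80391677, minus strand, with Mir1843a: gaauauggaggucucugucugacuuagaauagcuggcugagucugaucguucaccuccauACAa
Scarna13, bases 209 to 273 of 275, chr12:105031077-105031141, minus strand, with Mir3069: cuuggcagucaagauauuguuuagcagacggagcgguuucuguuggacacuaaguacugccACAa
Snord33, bases 1 to 28 of 82, chr7:45126918-45126945, minus strand, with Mir5121: agcuugUGAUGAgacaucucccacucau
The marked ACA was followed by 4 more bases up to the annotated end in Scarna3a, by 1 in Scarna3b and by 3 in Scarna13. UGAUGA began at base 7 of Snord33. Only the strand shown was searched. Among all 1005 mouse hairpins in the same table, 14.9% held ACA in their last 10 bases and 0.796% held UGAUGA in their first 28. Over the aligned stretches of Scarna3a and Scarna3b, 58 of 66 columns were identical, 6 differed and 2 were gaps.

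Across the members, large differences between arrays were frequent and went both ways. At 0.02 Gy against the unirradiated array, 14 of 107 members passed 2-fold upward (1.12% of all named genes) and 7 downward (1.17%). Together these were 19.6% of members, against 2.29% of all named genes. At 2.5 Gy against the unirradiated array, 10 were higher (0.940% of all named genes) and 2 lower (0.638%), which is 11.2% of members against 1.58% of all named genes. Between the doses, the 2.5 Gy value exceeded the 0.02 Gy value 2-fold or more in 13 members (1.22% of all named genes) and was that far below it in 9 (0.996%). These were 20.6% of members, against 2.22% of all named genes. Quantile normalization changed the high-dose split to 9 higher and 4 lower. Both dose comparisons use the same unirradiated array. In total 34 of the 107 passed 2-fold in at least 1 comparison, as did 4.24% of all named genes.

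By mean level over the arrays, 6 of 8 scaRNAs, 22 of 34 H/ACA RNAs and 31 of 65 C/D RNAs lay at or above the median of named genes. Class medians of the differences lay near 0, apart from that of the scaRNAs. The median difference of all members was 0.095 at 0.02 Gy and 0.13 at 2.5 Gy from the unirradiated array, beside -0.018 and -0.021 for all named genes. With a mean of at least 4.55 the medians were 0.19 and 0.13 for members, beside 0.039 and 0.0245 for named genes. From the 75th percentile of level upward they were 0.20 and 0.15, beside 0.11 and 0.080. For the 34 H/ACA RNAs the medians were 0.10 and 0.14, and for the 65 C/D RNAs 0.026 and 0.078. The median size of a difference, whatever its sign, was 0.38 at 0.02 Gy and 0.38 at 2.5 Gy for members, beside 0.21 and 0.19 for all named genes. MicroRNA genes, another class of short RNA, had 7.37% of 529 past 2-fold at 0.02 Gy and 6.05% at 2.5 Gy. Across members, length and the size of the difference had a Spearman rho of 0.10 at 0.02 Gy and 0.036 at 2.5 Gy (n = 107, all read on the same arrays). For mean level and the size of the difference the rho was 0.29 at 0.02 Gy and 0.19 at 2.5 Gy.

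**Figure D1:**
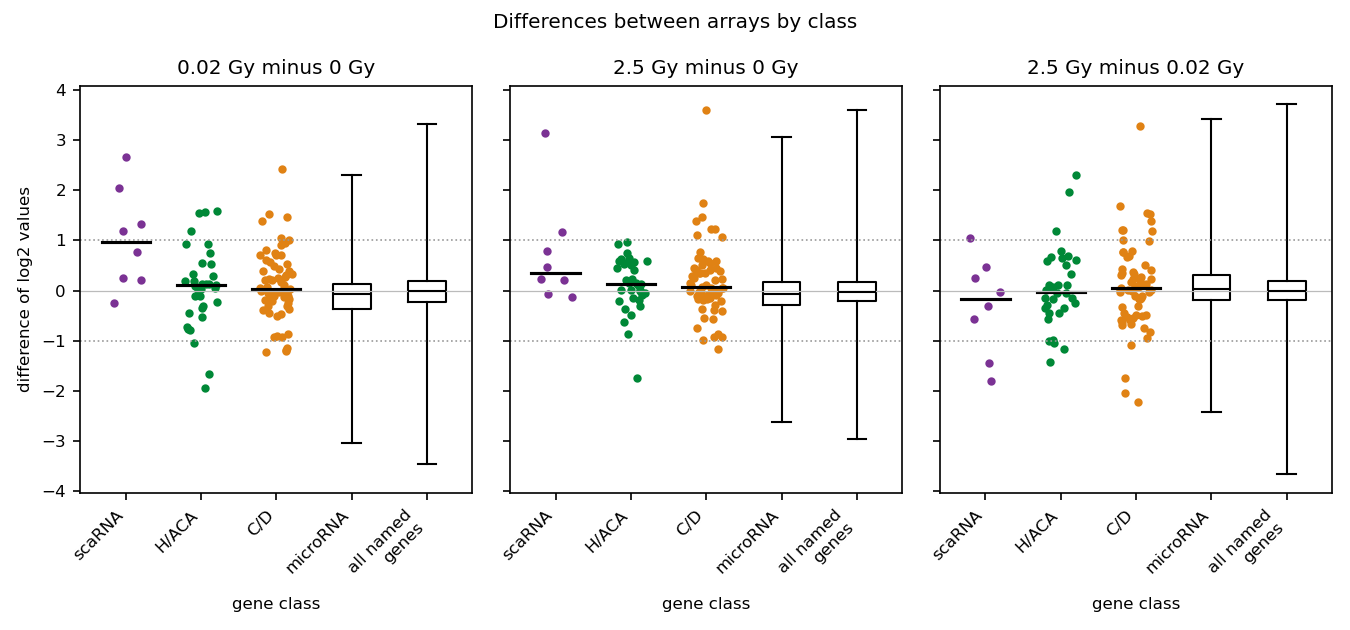
Difference of log2 values (vertical axis) by gene class for the 3 comparisons. Points are single members and thick lines class medians; boxes for 529 microRNA genes and all 23185 named genes show median and quartiles, with whiskers to the lowest and highest value. Dotted lines mark 2-fold, and members lie on both sides. In the comparison of 0.02 Gy with 0 Gy, 7 of 8 scaRNAs lie above 0, as do 47.4% of all named genes.

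Part of these counts came from genes of low level or from near copies. Of the 34 members past 2-fold in any comparison, 13 had a mean level below 4.55, as did 48 of all 107 members. With genes kept only where their mean over the 3 arrays reached 4.55, 59 members remained; 9 were higher and 6 lower at the low dose, and 4 were higher and 1 lower at the high dose. Of these 59, 25.4% passed 2-fold at 0.02 Gy and 8.47% at 2.5 Gy, against 2.47% and 1.73% of named genes at that level. Near copies, taken by name as members with 1 number and different letters, make up 18 of all members in 9 pairs, such as Snord15a and Snord15b. Sequence was compared for Scarna3a and Scarna3b only, and array probes may not separate every pair. The members of a pair had opposite signs in 6 of 9 pairs at the low dose and in 3 of 9 at the high dose. At the high dose no pair had both members past 2-fold, as in Snord14a at 1.38 and Snord14e at 0.63. Without those pairs 89 members remained. At 0.02 Gy 13 of them passed 2-fold upward and 5 downward against the unirradiated array (1.11% and 1.17% of named genes). At 2.5 Gy 5 did so upward and 2 downward (0.919% and 0.639%), and between the doses 6 upward and 8 downward (1.20% and 0.993%).

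**Figure D2:**
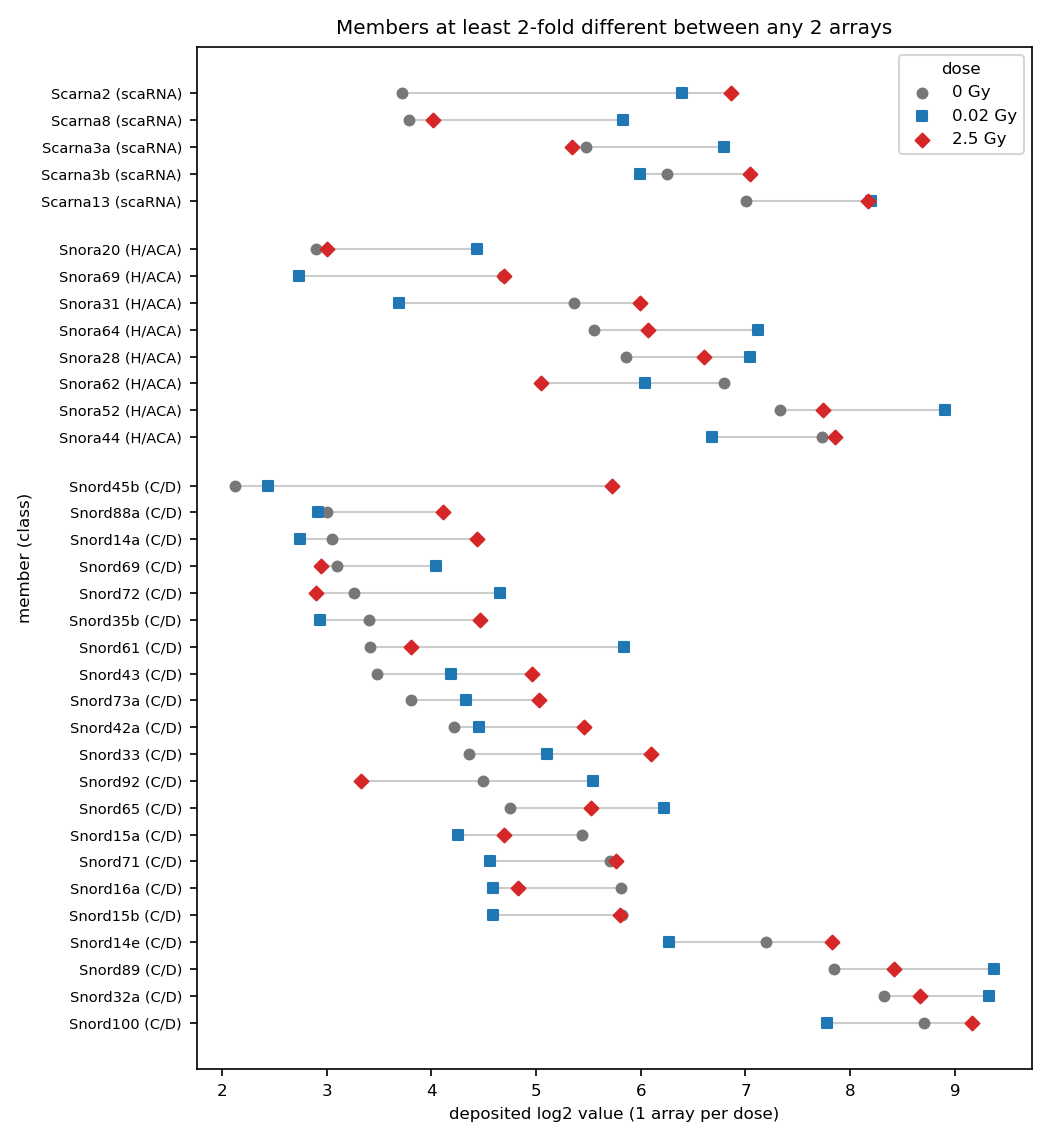
Deposited log2 value (horizontal axis) of each of the 34 members at least 2-fold apart between any pair of arrays, by class, with 1 point per dose and a grey line over the range. The 0.02 Gy point of Snord61 and the 2.5 Gy point of Snord45b lie far from their other points, and both irradiated points of Scarna2 and Scarna13 lie right of the 0 Gy point.

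The scaRNAs were taken first. At the low dose 4 of 8 were at least 2-fold higher than on the unirradiated array (1.12% of all named genes) and 0 lower (1.17%). At the high dose 2 were higher (0.940%) and 0 lower (0.638%), and after quantile normalization or loess 1 was higher. The median difference of the class was 0.98 at 0.02 Gy and 0.35 at 2.5 Gy, over 8 genes. At the high dose it was 0.63 over the 6 scaRNAs with a mean of at least 4.55, and the mean of all 8 was 0.72.

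Scarna2, whose human counterpart guides methylation of the U2 small nuclear RNA and which has a promoter of its own, stood at 3.72 at 0 Gy, 6.39 at 0.02 Gy and 6.86 at 2.5 Gy. Both irradiated arrays were well above the unirradiated one, by 2.67 at 0.02 Gy and 3.14 at 2.5 Gy. Its unirradiated value lay below 4.55, in a range where detection could not be judged. With Scarna13 it was 1 of 2 members lowest on the unirradiated array by at least 2-fold, as were 0.177% of all named genes, and 0 members were highest there (0.246%).

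Scarna13, an H/ACA-type scaRNA, stood at 7.003 at 0 Gy, 8.20 at 0.02 Gy and 8.17 at 2.5 Gy. The irradiated arrays lay together, 1.19 and 1.17 above the unirradiated one. After quantile normalization both differences were 0.99, just under 2-fold. Its host, the long non-coding RNA gene Snhg10, did not show this order, at 6.54, 6.99 and 5.98 over the same doses.

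Scarna8, whose human counterpart guides pseudouridylation of U2, stood at 3.78 at 0 Gy, 5.83 at 0.02 Gy and 4.02 at 2.5 Gy. Only the low-dose array was high for it. Its host Haus6, a subunit gene of the augmin complex of the mitotic spindle, differed by 0.26 at 0.02 Gy and 0.16 at 2.5 Gy.

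The near copies Scarna3a and Scarna3b, whose shared stretch is printed above, went different ways. Scarna3a stood at 5.47 at 0 Gy, 6.80 at 0.02 Gy and 5.34 at 2.5 Gy. Scarna3b stood at 6.25 at 0 Gy, 5.997 at 0.02 Gy and 7.04 at 2.5 Gy. The low-dose array was the high one for Scarna3a and the low one for Scarna3b. Scarna3a lies in Cop1, a ubiquitin ligase gene that differed by 0.04 at 0.02 Gy and 0.51 at 2.5 Gy. Scarna3b lies in Dcaf5, which differed by 0.02 and 0.74 at the same doses, beside -0.25 and 0.79 for Scarna3b.

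The remaining 3 scaRNAs passed 2-fold in no comparison. Scarna9, whose human counterpart also acts on U2, stood at 10.36 at 0 Gy, 10.61 at 0.02 Gy and 10.29 at 2.5 Gy. Scarna6 stood at 6.37 at 0 Gy, 6.59 at 0.02 Gy and 6.84 at 2.5 Gy. Scarna10 lay between 1.92 and 2.68 on the 3 arrays, near the lowest values of the whole table.

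Among the H/ACA RNAs, most large differences set the low-dose array apart. At 0.02 Gy against the unirradiated array 4 of 34 were at least 2-fold higher (1.12% of all named genes) and 3 lower (1.17%). At 2.5 Gy 0 were higher (0.940%) and 1 lower (0.638%), and median centring gave 1 higher. In 3 of them (Snora20, Snora52 and Snora64) the low-dose array was at least 2-fold above both others, and in 3 (Snora31, Snora44 and Snora69) it was at least 2-fold below both others. Over all members the low-dose array stood highest in this way for 7 (0.431% of all named genes) and lowest for 5 (0.397%).

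Snora52, in the ribosomal protein gene Rplp2, stood at 7.33 at 0 Gy, 8.91 at 0.02 Gy and 7.74 at 2.5 Gy. Snora64, in Rps2, stood at 5.55 at 0 Gy, 7.12 at 0.02 Gy and 6.07 at 2.5 Gy. Both guide RNAs act on rRNA of the large subunit in humans, and for both the low-dose array was the high one, by 1.58 and 1.57 over the unirradiated array. Rps2 differed by 0.18 there. Snora20, in the chaperonin subunit gene Tcp1, stood at 2.90 at 0 Gy, 4.44 at 0.02 Gy and 3.003 at 2.5 Gy, below 4.55 on every array.

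Snora31, in the translationally controlled tumour protein gene Tpt1, stood at 5.36 at 0 Gy, 3.69 at 0.02 Gy and 5.99 at 2.5 Gy. Snora69, in Rpl39, stood at 4.69 at 0 Gy, 2.73 at 0.02 Gy and 4.70 at 2.5 Gy. In these 2 the low-dose array was the low one and the remaining arrays lay within 0.63 of each other. Snora44 stood at 7.73 at 0 Gy, 6.68 at 0.02 Gy and 7.86 at 2.5 Gy, again lowest at the low dose (difference -1.05, and -0.99 after median centring).

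Snora62, in the laminin receptor and ribosomal protein gene Rpsa, was the H/ACA member that passed 2-fold at the high dose. It stood at 6.80 at 0 Gy, 6.04 at 0.02 Gy and 5.04 at 2.5 Gy, so the value was lower on each higher dose. The difference at 2.5 Gy from the unirradiated array was -1.76, beside -0.17 for Rpsa itself.

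Snora28, in the translation initiation factor gene Eif5, stood at 5.86 at 0 Gy, 7.05 at 0.02 Gy and 6.61 at 2.5 Gy. Both irradiated arrays were above the unirradiated one, by 1.19 and 0.75. Eif5 was 0.97 and 0.90 above it on the same arrays, so here host and member differed in the same direction and by similar amounts.

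The 3 H/ACA members with the highest mean level were Snora47, Snora23 and Snora43, and none passed 2-fold. Snora47, in Zbed3, stood at 9.97 at 0 Gy, 9.18 at 0.02 Gy and 9.78 at 2.5 Gy. Snora23, in the importin gene Ipo7, stood at 8.67 at 0 Gy, 8.67 at 0.02 Gy and 9.31 at 2.5 Gy. Snora43, in Snhg7, stood at 8.01 at 0 Gy, 8.57 at 0.02 Gy and 7.99 at 2.5 Gy. Snora73a and Snora73b, copies of a snoRNA needed for early cleavage of the rRNA precursor rather than for modification, were chosen after their values were seen; they differed by 0.93 and -0.35 at the low dose.

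The C/D RNAs are the largest class, and many of their high-dose differences rested on low values. At 2.5 Gy 8 of 65 were at least 2-fold higher than on the unirradiated array (0.940% of all named genes) and 1 lower (0.638%). With genes kept from a mean of 4.55 upward, 31 remained, and 2 were higher and 0 lower there. From the 75th percentile upward, with fewer members left to count, 0 were higher and 0 lower. Of named genes at those levels, 1.73% and 1.95% passed 2-fold either way at 2.5 Gy. Without near copies, again with fewer members left to count, 3 were higher at 2.5 Gy. At 0.02 Gy 6 were higher (1.12% of all named genes) and 4 lower (1.17%). From a mean of 4.55 upward 3 were higher and 4 lower at 0.02 Gy, and from the 75th percentile 3 were higher and 0 lower. Of named genes at those levels, 2.47% and 2.59% passed 2-fold either way at 0.02 Gy. In 5 of the 8 higher at 2.5 Gy, the high-dose array was at least 2-fold above both others, as for 0.414% of all named genes. These were Snord14a, Snord35b, Snord42a, Snord45b and Snord88a. Snord42a ended just under 2-fold between the doses after quantile normalization (0.97), median centring (0.99) and loess (0.99).

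Snord45b, whose human counterpart guides methylation of small-subunit rRNA, stood at 2.12 at 0 Gy, 2.44 at 0.02 Gy and 5.73 at 2.5 Gy. This was the largest difference of any member at the high dose (3.61 on the log2 scale), and also that of any named gene in this comparison. Its host Rabggtb, a gene of the enzyme that adds lipid anchors to Rab proteins, stood at 5.81 at 0 Gy, 5.82 at 0.02 Gy and 6.28 at 2.5 Gy. The 2 lower values of Snord45b lay near the bottom of the table, where detection could not be judged.

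Snord33, printed above with its C box, stood at 4.36 at 0 Gy, 5.11 at 0.02 Gy and 6.10 at 2.5 Gy. The value was higher on each higher dose, and the high-dose array lay 1.74 above the unirradiated one. Snord33 is 1 of 4 snoRNAs of Rpl13a on the array, a group reported in rodent cells to take part in metabolic stress. The separate probe set of Mir5121, whose hairpin overlaps the first 28 bases of Snord33, stood at 4.21 at 0 Gy, 3.89 at 0.02 Gy and 4.51 at 2.5 Gy, a difference of 0.30 at the high dose.

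The other Rpl13a snoRNAs did not share this order. Snord32a stood at 8.32 at 0 Gy, 9.33 at 0.02 Gy and 8.67 at 2.5 Gy, highest at the low dose (difference 1.01, and 0.74 after quantile normalization). Snord34 stood at 3.40 at 0 Gy, 2.96 at 0.02 Gy and 3.20 at 2.5 Gy, and Snord35a at 3.52, 3.56 and 3.92 on the same arrays; both lay below 4.55 throughout. Rpl13a itself was not analysed here.

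Of the remaining C/D members higher at 2.5 Gy, Snord43 in Rpl3 stood at 3.48 at 0 Gy, 4.18 at 0.02 Gy and 4.96 at 2.5 Gy. Snord73a in Rps3a1 stood at 3.80 at 0 Gy, 4.33 at 0.02 Gy and 5.02 at 2.5 Gy. Both began below 4.55 and were higher on each higher dose, while Rpl3 and Rps3a1 differed by 0.02 and -0.06 at the high dose. Snord42a in Rpl23a stood at 4.22 at 0 Gy, 4.45 at 0.02 Gy and 5.46 at 2.5 Gy, while its copy Snord42b differed by -0.10 at the high dose. Snord14a in Rps13, Snord35b, and Snord88a in 2410002F23Rik differed by 1.38, 1.06 and 1.11 at the high dose and lay below 4.55 on all 3 arrays.

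Snord14e lies in Hspa8, the constitutive heat shock chaperone gene, and set host and guide RNA apart. Hspa8 stood at 6.47 at 0 Gy, 8.14 at 0.02 Gy and 8.16 at 2.5 Gy, high on both irradiated arrays. Snord14e stood at 7.19 at 0 Gy, 6.27 at 0.02 Gy and 7.82 at 2.5 Gy. Its low-dose value was the lowest of the 3, with a difference of -0.92 from the unirradiated array where Hspa8 differed by 1.67.

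At 0.02 Gy, Snord61 in the RNA-binding protein gene Rbmx stood apart furthest among the C/D RNAs. It stood at 3.41 at 0 Gy, 5.84 at 0.02 Gy and 3.80 at 2.5 Gy, while Rbmx differed by 0.28 at the low dose. Snord72, in Rpl37, stood at 3.26 at 0 Gy, 4.65 at 0.02 Gy and 2.90 at 2.5 Gy. Its host Rpl37 stood at 4.70 at 0 Gy, 5.73 at 0.02 Gy and 5.18 at 2.5 Gy, so both were highest at the low dose.

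Snord89, which lies in no host of the table, stood at 7.85 at 0 Gy, 9.37 at 0.02 Gy and 8.42 at 2.5 Gy. Snord65, in 2410006H16Rik, stood at 4.75 at 0 Gy, 6.22 at 0.02 Gy and 5.52 at 2.5 Gy. Both irradiated arrays were above the unirradiated one for each, and the low dose was the highest. Snord69 in Gnl3, the nucleostemin gene, stood at 3.10 at 0 Gy, 4.04 at 0.02 Gy and 2.95 at 2.5 Gy, and passed 2-fold only between the doses.

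Lower at 0.02 Gy were Snord15a, Snord15b, Snord16a and Snord71. Snord15a and Snord15b lie in Rps3 and differed by -1.18 and -1.23 at the low dose, while Rps3 differed by 0.00. At the high dose Snord15a differed by -0.75 and Snord15b by -0.02. Snord16a, in Rpl4, stood at 5.81 at 0 Gy, 4.59 at 0.02 Gy and 4.83 at 2.5 Gy, low on both irradiated arrays. Snord71, in Ap1g1, stood at 5.70 at 0 Gy, 4.56 at 0.02 Gy and 5.76 at 2.5 Gy, low only at the low dose.

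Snord92 and Snord53 lie in Wdr43, a gene of the processome that builds the small ribosomal subunit. Snord92 stood at 4.49 at 0 Gy, 5.55 at 0.02 Gy and 3.33 at 2.5 Gy. Snord53 stood at 6.62 at 0 Gy, 6.52 at 0.02 Gy and 5.70 at 2.5 Gy, and was named for its place beside Snord92 once both values were known. The high-dose array was the low one for both (for Snord92 at least 2-fold below both others, as for 0.112% of all named genes), whereas Wdr43 was 0.54 above the unirradiated array there.

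The C/D members with the highest mean level beside Snord32a were Snord104 and Snord8, and neither passed 2-fold. Snord104 stood at 8.64 at 0 Gy, 9.02 at 0.02 Gy and 9.29 at 2.5 Gy. Snord8, in the span of the chromatin remodeller gene Chd8, stood at 8.92 at 0 Gy, 8.40 at 0.02 Gy and 8.77 at 2.5 Gy. Snord100, in Rps12, stood at 8.70 at 0 Gy, 7.78 at 0.02 Gy and 9.16 at 2.5 Gy, which is 2-fold only between the doses.

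Snord118 and Snord13, which have promoters of their own, passed 2-fold in no comparison, as did 73 of all 107 members. They were chosen for their roles in making rRNA after their values were seen. Snord118, needed for processing of large-subunit rRNA, stood at 5.85 at 0 Gy, 5.70 at 0.02 Gy and 5.76 at 2.5 Gy. Snord13, which takes part in acetylation of small-subunit rRNA, stood at 7.18 at 0 Gy, 7.39 at 0.02 Gy and 6.80 at 2.5 Gy. Nearest to 2-fold among all differences were Snord42a (1.0053, high minus low dose) and Snord32a (1.0098, low dose minus unirradiated) inside it, and Snora5c (-0.9998) and Snord33 (0.9946), both high minus low dose, outside it.

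Host genes were assigned by position, as protein-coding or long non-coding genes whose RefSeq span holds the member, with strand not checked. At least 1 such gene was found for 103 members, and 79 members lay in a single host that was named on the array (59 hosts). In median size, members differed more than these hosts did. The median was 0.32 for members and 0.25 for hosts at the low dose, and 0.36 and 0.22 at the high dose. Some hosts lay low themselves, such as Tpt1 (1.92 at 0 Gy) and Rpl10 (3.17 at 0 Gy), and their detection could not be judged. Member and host had the same sign in 44 of 79 at the low dose and in 47 of 79 at the high dose. For the 9 such members past 2-fold at the high dose, 0 of their 9 hosts passed 2-fold (1.58% of all named genes did). These hosts ran from -0.78 (Rps13) to 0.54 (Wdr43). For the 15 past 2-fold at the low dose, 1 of 14 hosts passed it, Rpl37 at 1.02 (2.29% of all named genes). At those shares few or none of so few hosts would pass 2-fold, whatever their members did.

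Several hosts carry more than 1 member. Of 21 such hosts, 14 held members on both sides of 0 at 0.02 Gy, 12 at 2.5 Gy and 10 between the doses. Members with unrelated signs would also often lie on both sides of 0, so these counts are only a description. Values close to 0 count by sign alone, as in Nop56, with -0.0025 and 0.17 at the low dose. Snhg12 carries 4 members, and at the low dose Snora44 differed by -1.05, Snora61 by 0.13, Snora16a by 0.52 and Snord99 by 0.91, beside 0.32 for Snhg12. Between the doses the 4 ranged from -0.56 to 1.18. Members of 1 host share a position in the genome and are not replicates of each other.

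**Figure D3:**
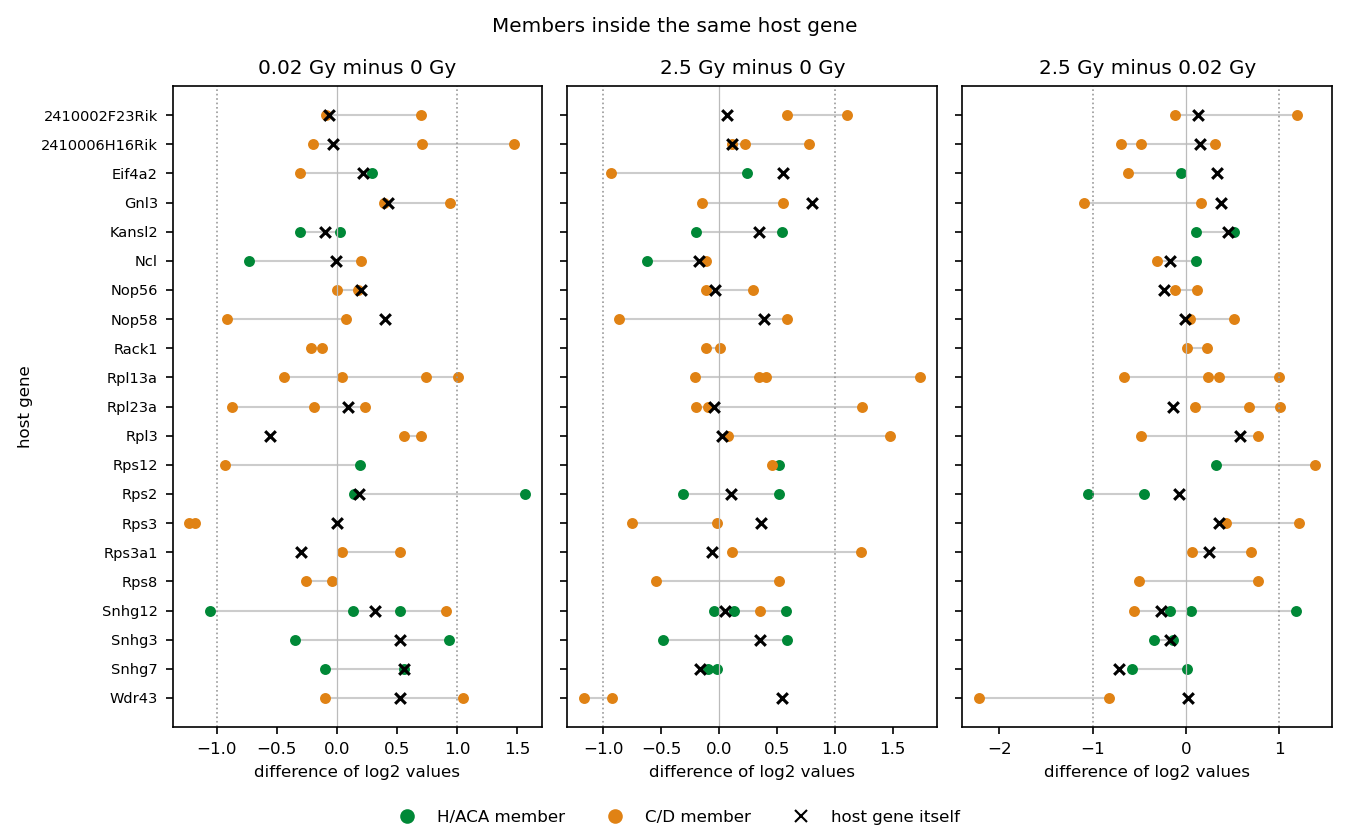
Difference of log2 values (horizontal axis) for members inside each of 21 host genes with several members (vertical axis), for the 3 comparisons. Points are members, crosses the host gene where it was named on the array, and dotted lines mark 2-fold. In Snhg12 the members spread from -1.05 to 0.91 at the low dose, on both sides of the host at 0.32.

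Genes of the proteins that bind guide RNAs stayed within 2-fold of the unirradiated array, as did most named genes. For all named genes the median size of a difference was 0.21 at 0.02 Gy and 0.19 at 2.5 Gy. Of the 4 H/ACA core proteins, none passed 2-fold. Dkc1, the pseudouridine synthase dyskerin, differed by -0.04 at 0.02 Gy and 0.13 at 2.5 Gy, Gar1 by 0.33 and 0.35, Nhp2 by 0.32 and 0.39, and Nop10 by 0.12 and 0.52. Of the 4 C/D core proteins, 3 were measured. The methyltransferase gene Fbl differed by 0.33 at 0.02 Gy and 0.74 at 2.5 Gy, Nop56 by 0.20 and -0.03, and Nop58 by 0.40 and 0.39; Fbl lay below 4.55 on all 3 arrays. All 4 H/ACA genes were above 0 at the high dose, as were 46.6% of all named genes. Their median was 0.37, beside -0.021 for all named genes. For named genes with a mean of at least 4.55 it was 0.0245, and from the 75th percentile of level upward 0.080.

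Genes of assembly, Cajal bodies and processing were read next. Of all named genes, 2.29% passed 2-fold at 0.02 Gy, 1.58% at 2.5 Gy and 2.22% between the doses. At those shares, lists this short would hold few or none past 2-fold. None of 12 assembly factor genes passed it in any comparison, with medians of 0.01 at 0.02 Gy and -0.01 at 2.5 Gy. Among these, Shq1, a chaperone of dyskerin, differed by -0.40 and -0.55, and Ruvbl2, an ATPase gene, by 0.11 and 0.48. None of 18 Cajal body genes passed it, with medians of 0.08 and -0.00. Larp7, which binds the 7SK RNA, differed by 0.85 and 0.29 and Strap by 0.37 and 0.85.

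Of 16 genes of 3′ end processing, 1 passed 2-fold, where 4.24% of all named genes did so in at least 1 comparison. The medians were 0.21 at 0.02 Gy and 0.11 at 2.5 Gy. The gene past 2-fold was Exosc1, an exosome subunit gene, at 6.13 at 0 Gy, 5.11 at 0.02 Gy and 5.46 at 2.5 Gy. Its low-dose difference was -1.02, and -0.96 after median centring, which is under 2-fold. Exosc10, the nuclear exonuclease of the exosome, differed by 0.77 and 0.70. The rRNA synthesis and processome list had medians of 0.12 and 0.09 over 35 measured genes, with none past 2-fold on the deposited values. Wdr75 differed by 0.99 and 0.88, and its low-dose difference passed 2-fold after quantile normalization (1.03), median centring (1.06) and loess (1.02). The list's medians after quantile normalization were 0.048 and 0.039. Polr1b, a subunit gene of RNA polymerase I, differed by 0.64 and 0.18.

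Of 21 long non-coding host genes, 16 were above 0 at 0.02 Gy and 10 at 2.5 Gy, beside 47.4% and 46.6% of all named genes. Their medians were 0.15 and -0.05. The low-dose median was -0.012 after quantile normalization and -0.0078 after loess, and the high-dose median was 0.00060 after median centring. In the same comparison the decile of named genes highest in level had a median of 0.19 at the low dose. Snhg15 stood at 5.29 at 0 Gy, 5.93 at 0.02 Gy and 6.66 at 2.5 Gy. It was the only one at least 2-fold from the unirradiated array, where 0.940% of all named genes were that much higher at 2.5 Gy. Snhg10, the host of Scarna13, was 2-fold lower at the high dose than at the low dose (difference -1.01).

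**Figure D4:**
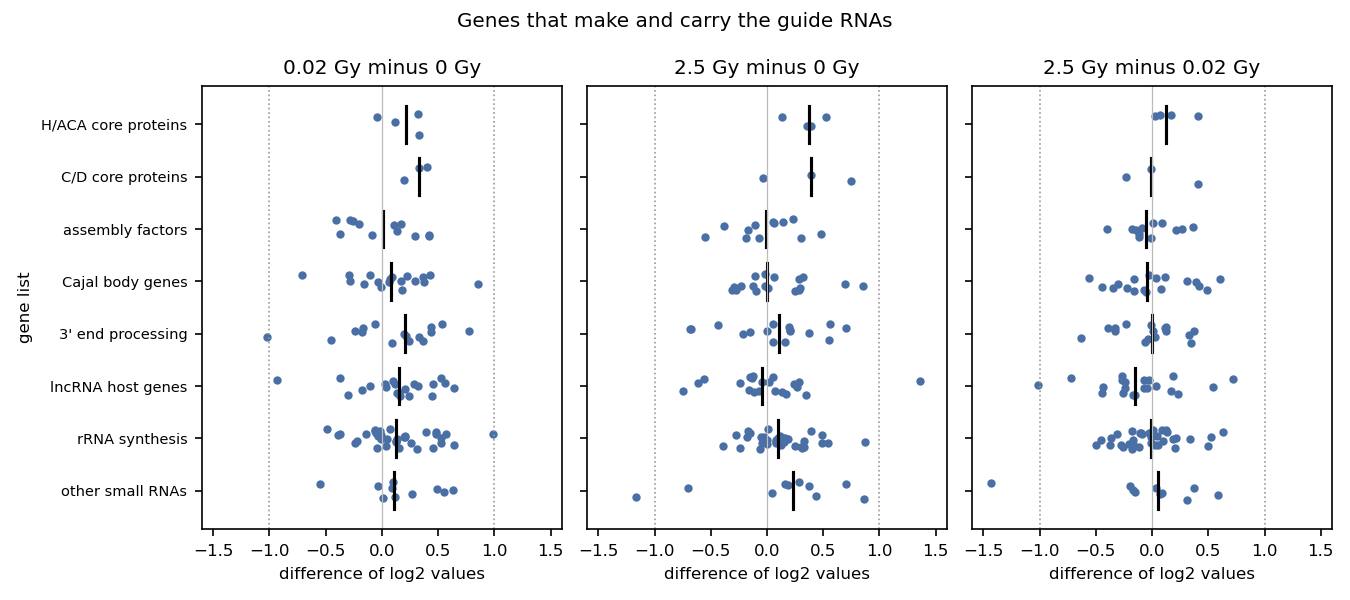
Difference of log2 values (horizontal axis) for the measured genes of 8 lists (vertical axis) in the 3 comparisons. Points are genes, thick lines list medians, and dotted lines mark 2-fold. Most genes lie within 2-fold, with Snhg15 at 1.36 at the high dose and Exosc1 at -1.02 at the low dose among those outside it.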

How the data were processed

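The 3 arrays hold 1 sample each of unirradiated, low-dose and high-dose cells, as the labels give them. The authors deposited 1 log2 value per probe set and array; the log2 scale was read from the values, which run from 1.55 to 12.4. Partek is named, with no version or role, per the submitters' processing notes; background correction, normalization and summarisation are steps not given in the sources used here, so detection is unknown. Array medians were 4.60, 4.54 and 4.55 for 0, 0.02 and 2.5 Gy. Of 25206 probe sets, 23185 have 1 symbol in the platform table; the other 2021 stayed out.

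Differences were taken on the log2 scale and called at 2-fold, with no level minimum. Members, lists and comparisons were chosen with earlier results of these data known, and the members' values are a description. Of 135 listed symbols in 8 lists, 119 matched. Genes named were members past 2-fold, the 3 highest in mean level per class, core proteins, the 2 largest differences of other lists, hosts, and members nearest to 2-fold; others are marked. Hosts and sequences came from RefSeq tables (GRCm38.p6); the files state no build and the gene table gives no strand. The counting and scaling steps were tested on simulated data. Alternatives were level minimums, quantile normalization, median centring, loess (span 0.3), 1.5-fold, 3-fold, means, and near copies left out. Python 3.11.15, pandas 2.3.3, statsmodels 0.14.6 and Biopython 1.88 were used.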

Additional observations from a re-analysis of the deposited data

Results flagged for a closer look

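Snord92 was picked out because its values on the irradiated arrays lay at least 2-fold from the unirradiated array in opposite directions. Its difference was 1.05 at 0.02 Gy and -1.16 at 2.5 Gy, with 1 array per dose. The difference between the doses was not tested, since it rests on single arrays. Its values were 4.49 at 0 Gy, 5.55 at 0.02 Gy and 3.33 at 2.5 Gy, beside a median of 4.55 for named genes.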

How the results depend on the processing

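No paired analysis was possible because there is a single array at each dose, and nothing was tested. With a level minimum of 4.55, 59 members remained, with 9 higher and 6 lower at 0.02 Gy, and 4 higher and 1 lower at 2.5 Gy. Between the doses (2.5 Gy over 0.02 Gy) 8 were higher and 3 lower. These were 18.6% of the members, against 2.5% of named genes at that level. With the minimum at the 75th percentile (5.46), 45 members remained, so fewer genes could be counted there. The same counts were 9 higher and 1 lower, 2 higher and 1 lower, and 4 higher and 3 lower. These were 22.2%, 6.67% and 15.6% of those members, against 2.59%, 1.95% and 2.62% of named genes past 2-fold. By construction, 1.5-fold gave more (26 higher and 14 lower, 21 higher and 9 lower, 25 higher and 18 lower, against 10.9%, 8.54% and 9.90% of named genes) and 3-fold gave fewer (3 higher and 2 lower, 3 higher and 1 lower, 4 higher and 4 lower, against 0.474%, 0.345% and 0.535%). Quantile normalization gave 9 and 4 at the high dose against 10 and 2 as deposited; the cause was not tested. Leaving out near copies, chosen after seeing the data, left 89 members. Of these, 5 were higher at 2.5 Gy than at 0 Gy and 6 were higher at 2.5 Gy than at 0.02 Gy. Of 48 alternative counts over all members, 22 stayed within 1.5 times. Class medians moved by less than the spread among members in all 84 alternatives, which is a wide margin; the C/D median of high dose minus low dose was 0.059 as deposited, -0.16 with the 4.55 minimum, -0.38 at the 75th percentile and -0.0088 without near copies, and that of high dose minus unirradiated was 0.078 as deposited and -0.019 at the 75th percentile. All 819 alternative values of 91 named genes stayed within 1 robust SD of genes at a similar level. Under quantile normalization and loess, Scarna13 and Snord32a ended below 2-fold at the low dose and Scarna13 at the high dose; Snora44 did so under median centring, and Snord42a in high dose minus low dose under all 3 scalings. Signal over background is unknown, which limits the low values most.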

Other observations

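Other small non-coding RNAs were read beside the guide RNAs, and 10 of 22 listed were named on the array. Their medians were 0.11 at 0.02 Gy and 0.24 at 2.5 Gy from the unirradiated array. Of the 10, 8 were above 0 at each dose, as were 47.4% and 46.6% of all named genes. The decile of named genes highest in level, where several of these RNAs lie, had medians of 0.19 and 0.14. After quantile normalization the medians were 0.035 and 0.096, and after loess 0.0018 and 0.14. Rmrp, the RNA of the RNase MRP complex that cuts the rRNA precursor, stood at 9.23 at 0 Gy, 9.72 at 0.02 Gy and 10.09 at 2.5 Gy. Vaultrc5, a vault RNA, stood at 4.92 at 0 Gy, 5.19 at 0.02 Gy and 3.75 at 2.5 Gy. It was the only one of the list past 2-fold, where 4.24% of all named genes were in at least 1 comparison. Terc, the telomerase RNA and itself an H/ACA RNA, was chosen after its value was seen and stood at 6.53 at 0 Gy, 6.64 at 0.02 Gy and 7.23 at 2.5 Gy.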
